A study of Mus musculus with 16 samples.

Results

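The members examined were 10 mouse genes of the Notch pathway: the receptors Notch1, Notch2 and Notch3, the ligands Jag1, Jag2 and Dll1, and Hes1, Hey1, Heyl and Nrarp, which are known targets of the pathway. They were matched by gene symbol, and all 10 were found among the 24421 genes of the tables keyed by symbol and among the 51912 entries of the table keyed by Ensembl identifier. RNA-seq of polyadenylated RNA was available from 16 libraries of C57BL/6 organoids, which are cells grown as 3-dimensional cultures. Lung-LMP1 (n = 3) and LMP1 (n = 2) were tumour organoids of genotype TMPL, made up of Trp53-/-, Myc, sgCdkn2a and LMP1. Lung-Ctr (n = 2) and Ctr (n = 3) were tumour organoids of genotype TMP, made up of Trp53-/-, Myc and sgCdkn2a, so the Trp53, Myc and Cdkn2a alterations are shared by all tumour groups and the TMPL groups add LMP1, a membrane protein through which Epstein-Barr virus signals. The tumours had grown in recipient mice that received orthotopic transplants at the nasopharynx. Normal_nasopha (n = 3) and Normal_lung (n = 3) were organoids grown from untreated tissue, nasopharynx in one case and lung in the other. By their descriptions all TMP libraries are primary and all TMPL libraries metastases, whereas the design text gives each genotype both kinds. Groups are therefore named from the titles, and the Lung prefix is not read as a place of growth. Whether libraries of a group came from separate animals or cultures is not labelled, and p-values here reflect only the spread between these samples, which may be technical.

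Notch receptors span the cell membrane and are activated by Jagged and Delta-like ligands on neighbouring cells. Ligand binding leads to cleavage by ADAM10 and then by gamma-secretase, and the released intracellular domain joins the DNA-binding protein RBPJ and a Mastermind coactivator to switch on targets such as the HES and HEY repressors and Nrarp, a feedback inhibitor. In airway and stratified epithelium the pathway is known for steering basal cells away from the basal state and towards luminal or suprabasal fates.

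Total counts were between 12535166 and 21737184 per library, so that 3 counts, used here as the floor for a library, came to between 0.138 and 0.239 CPM. CPM are counts scaled to the same library total, taken here on the total count of each library, and the floor covers counting error only. The table that sets Ctr against normal nasopharynx holds 3 columns headed as normal lung. Across 22573 shared symbols, each had its highest Spearman correlation with the Normal_nasopha library of the same number (0.979, 0.977 and 0.979), against 0.933 to 0.944 with the other Normal_nasopha libraries and 0.888 to 0.904 with Normal_lung. They are called the normal comparator and are not independent of Normal_nasopha. The name of the comparison and these correlations go with nasopharynx, whereas the column headings name lung, so the labels conflict. Markers fitted the tissue names of the normal groups, since 8 alveolar genes summed to between 159.6 and 302 CPM in Normal_nasopha, against 60080 to 69407 CPM in Normal_lung. Libraries stood apart within 3 groups, since 8 basal markers summed to 1046 and 5246 CPM in Lung-Ctr replicates 1 and 2 and to 16155, 3158 and 10604 CPM in Normal_nasopha, and 9 mesenchymal markers summed to 616 CPM in Ctr replicate 2, against 3.31 and 21.4 CPM in Ctr replicates 1 and 3.

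Of the 10 members, Notch3, Dll1 and Jag1 were those lower in LMP1 than in Ctr past the test given below, and their promoters are shown because the 3 genes moved together. Each window holds 250 bases before and 50 bases after the RefSeq start (GRCm38.p6), printed 5′ to 3′ on the gene's strand, which is the minus strand for all 3 genes. The windows lie at chr17:32166841-32167140 (Notch3), chr17:15376883-15377182 and chr17:15375774-15376073 (Dll1, which has 2 windows) and chr2:137116471-137116770 (Jag1). Capitals mark the HES N-box CACNAG on either strand.
Notch3: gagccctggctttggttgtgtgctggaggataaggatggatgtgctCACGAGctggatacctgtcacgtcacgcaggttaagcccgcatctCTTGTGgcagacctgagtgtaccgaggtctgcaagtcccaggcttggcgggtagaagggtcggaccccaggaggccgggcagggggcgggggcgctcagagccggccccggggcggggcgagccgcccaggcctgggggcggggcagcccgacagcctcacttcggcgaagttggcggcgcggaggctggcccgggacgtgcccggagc
Dll1, upstream window: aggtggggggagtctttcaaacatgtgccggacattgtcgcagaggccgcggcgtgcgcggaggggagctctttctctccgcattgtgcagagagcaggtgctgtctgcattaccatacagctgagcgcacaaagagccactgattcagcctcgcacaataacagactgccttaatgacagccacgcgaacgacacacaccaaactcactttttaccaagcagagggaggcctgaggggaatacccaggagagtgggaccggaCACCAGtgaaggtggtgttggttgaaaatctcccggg
Dll1, downstream window: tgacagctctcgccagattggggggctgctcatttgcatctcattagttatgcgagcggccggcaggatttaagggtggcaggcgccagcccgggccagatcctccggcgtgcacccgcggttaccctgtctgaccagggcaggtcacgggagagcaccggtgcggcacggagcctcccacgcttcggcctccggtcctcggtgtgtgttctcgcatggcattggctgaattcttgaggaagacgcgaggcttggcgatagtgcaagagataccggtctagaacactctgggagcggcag
Jag1: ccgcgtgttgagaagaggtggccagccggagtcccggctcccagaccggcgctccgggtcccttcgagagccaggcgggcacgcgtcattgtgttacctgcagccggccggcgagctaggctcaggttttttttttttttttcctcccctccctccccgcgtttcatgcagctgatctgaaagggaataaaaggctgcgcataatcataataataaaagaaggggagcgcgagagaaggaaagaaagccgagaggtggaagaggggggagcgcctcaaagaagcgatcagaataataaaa
RefSeq windows were found for 7 of the 10 members (8 windows), and Hes1, Hey1 and Heyl had none in the table. The N-box CACNAG stood in 5 of these 8 windows, against 42.5% of all 32851 windows of the same length. The RBPJ core TGGGAA, searched on both strands, stood in 0 of the 8, against 25.6% of all windows, and its longer form GTGGGAA, which overlaps the core, in 0 of the 8, against 6.38%. These counts describe the letters in the windows and nothing about binding.

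Among the receptors, Notch2 and Notch3 moved in opposite directions between LMP1 and Ctr. Notch1, a receptor that is widely expressed in epithelium (chromosome 2, 26457903 to 26516663, GRCm38, minus strand), was counted at 92.2, 52.2 and 75.7 CPM in Lung-LMP1 and at 36.8 and 225 CPM in Lung-Ctr. It was counted at 117.5 and 86.5 CPM in LMP1, against 112.7, 78.7 and 105.5 CPM in Ctr. The normal comparator had 267, 111 and 244 CPM of Notch1. The LMP1 and Ctr ranges overlapped, and the pair of Lung-Ctr libraries lay on either side of all Lung-LMP1 libraries.

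Notch2, a receptor closely related to Notch1 (chromosome 3, 98013527 to 98150361, plus strand), was counted at 88.0, 79.7 and 79.1 CPM in Lung-LMP1, against 60.9 and 55.3 CPM in Lung-Ctr. It was counted at 173.9 and 150.1 CPM in LMP1, against 62.5, 113.8 and 67.9 CPM in Ctr. The normal comparator had 106.5, 90.5 and 69.7 CPM. Both LMP1 libraries lay above all other tumour libraries and above the comparator.

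Notch3, a receptor known in mouse airway epithelium for priming basal cells to differentiate and also for its role in mural cells of vessels (chromosome 17, 32120820 to 32166852, minus strand), ran the other way. It was counted at 79.9, 152 and 165 CPM in Lung-LMP1 and at 93.5 and 320 CPM in Lung-Ctr. It fell to 8.80 and 8.46 CPM in LMP1, against 189 CPM in Ctr replicate 1 and 56.7 and 66.0 CPM in Ctr replicates 2 and 3. The normal comparator had 230.1, 145 and 567 CPM. The LMP1 libraries lay below every other tumour and comparator library.

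Among the ligands, Jag1 (chromosome 2, 137081456 to 137116644, minus strand) was counted at 69.7, 72.9 and 78.6 CPM in Lung-LMP1, against 65.7 and 142 CPM in Lung-Ctr. It was counted at 30.2 and 27.4 CPM in LMP1, against 66.0, 53.9 and 76.5 CPM in Ctr, and at 122, 51.4 and 120.2 CPM in the comparator. Dll1, a Delta-like ligand (chromosome 17, 15367354 to 15376872, minus strand), was counted at 30.0, 28.7 and 24.6 CPM in Lung-LMP1, against 3.06 and 28.5 CPM in Lung-Ctr. Its LMP1 libraries held 12 counts each (0.664 and 0.812 CPM), against 19.3, 8.57 and 33.3 CPM in Ctr and 61.9, 16.8 and 67.7 CPM in the comparator. Both ligands had their lowest tumour values in the LMP1 libraries.

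Jag2, the other Jagged ligand (chromosome 12, 112907819 to 112929776, minus strand), was counted at 523, 292 and 423 CPM in Lung-LMP1 and at 163 and 585 CPM in Lung-Ctr. It was counted at 129.7 and 165 CPM in LMP1, against 279, 163 and 435 CPM in Ctr, so that LMP1 replicate 2 lay just above Ctr replicate 2. The comparator ran from 96.0 to 517.5 CPM.

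Of the 4 targets, 0 were called between tumour groups by edgeR. Hes1, a transcriptional repressor and the best known Notch target (chromosome 16, 30064384 to 30067796, plus strand), was counted at 83.8, 126 and 98.4 CPM in Lung-LMP1 and at 104 and 121 CPM in Lung-Ctr. It was counted at 174 and 94.9 CPM in LMP1, against 93.7, 52.8 and 51.3 CPM in Ctr, so that these groups just failed to overlap, and at 88.8, 22.6 and 86.3 CPM in the comparator. Nrarp (chromosome 2, 25180758 to 25183339, plus strand) was counted at 56.7, 45.1 and 51.7 CPM in Lung-LMP1, 49.2 and 106.8 CPM in Lung-Ctr, 43.7 and 51.8 CPM in LMP1, and 40.2, 35.5 and 63.2 CPM in Ctr. All 4 tumour groups overlapped at Nrarp, and the comparator had 109.0, 22.4 and 72.2 CPM.

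Hey1, a repressor of the HEY family (chromosome 3, 8663359 to 8667256, minus strand), was low and uneven in tumours, at 0.813, 15.3 and 1.60 CPM in Lung-LMP1, 0.975 and 7.44 CPM in Lung-Ctr, 4.32 and 1.62 CPM in LMP1, and 3.01, 9.08 and 2.16 CPM in Ctr. The comparator had 18.2, 2.95 and 35.5 CPM of Hey1. Heyl, a related repressor (chromosome 4, 123233556 to 123249875, plus strand), was near the floor everywhere. It had 0 counts in all 3 Lung-LMP1 libraries, against 7 and 22 counts in Lung-Ctr, and it had 8 and 3 counts in LMP1, against 16, 1 and 0 counts in Ctr, with 5, 0 and 1 counts in the comparator. Taking 3 counts over the Lung-LMP1 group as the floor, Heyl was at least 14.3-fold lower in Lung-LMP1 than in Lung-Ctr (29 counts). It was at least 4.87-fold lower than in LMP1 (11 counts). The bounds take the 29 and 11 counts as exact and leave out the spread between libraries. Neither difference was called by edgeR (adjusted p = 0.208 against Lung-Ctr and 0.214 against LMP1). These bounds leaned on single libraries, since the first was 7.09-fold without Lung-Ctr replicate 2 and 21.3-fold without replicate 1, and without LMP1 replicate 1 the 3 counts left give no bound.

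**Figure D1:**
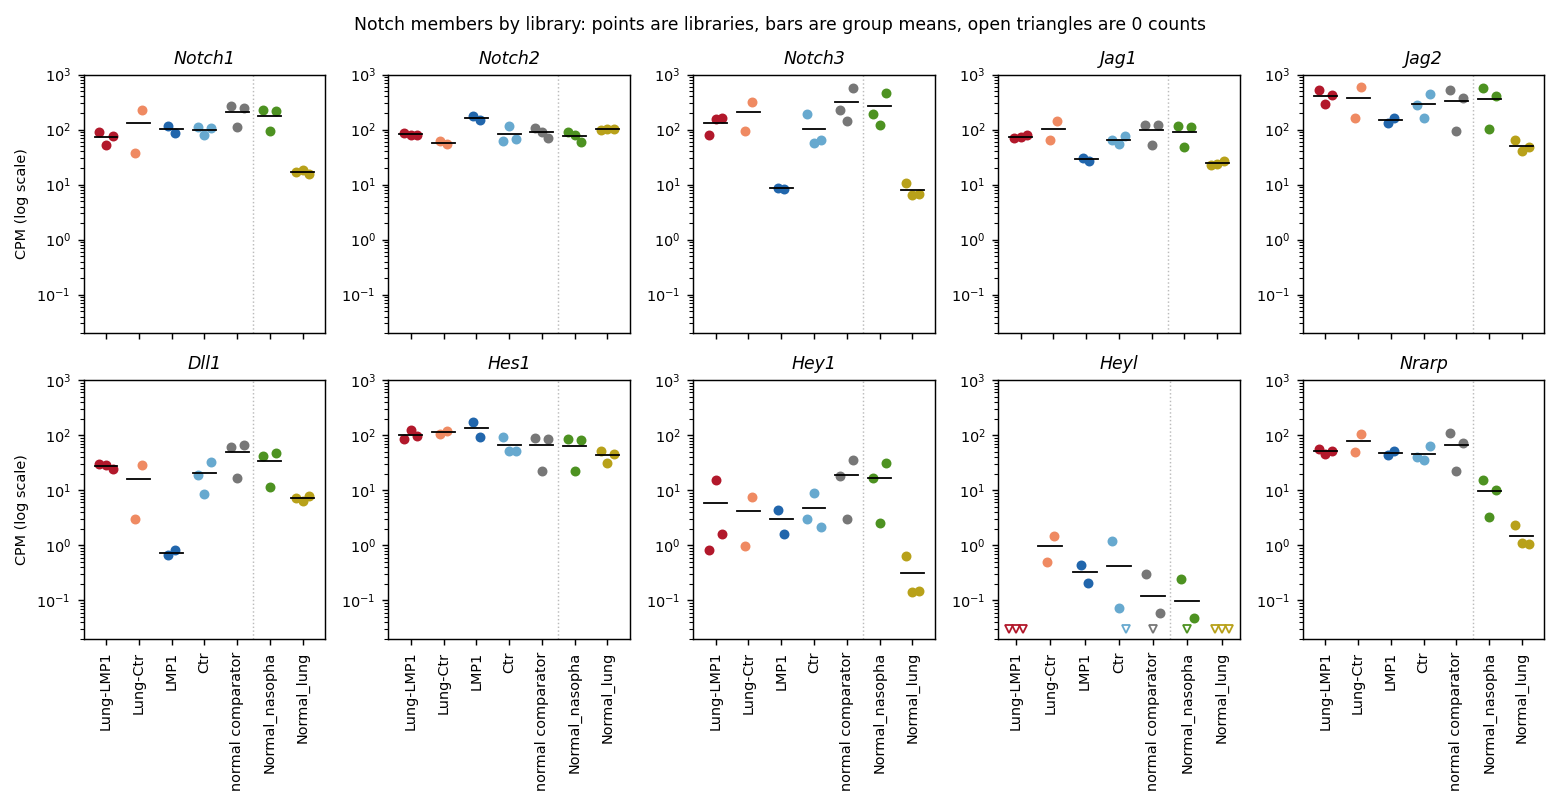
CPM on a log axis for each of the 10 members, with 1 point per library, a bar at each group mean and open triangles for libraries with 0 counts. The normal comparator stands left of the dotted line and the normal groups, from another table, stand right of it. The LMP1 group is the lowest tumour group for Notch3 (8.80 and 8.46 CPM) and Dll1 (0.664 and 0.812 CPM) and the highest for Notch2 (173.9 and 150.1 CPM).

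LMP1 and Ctr set the genotypes against each other among libraries without the Lung prefix. Notch2 rose 1.96-fold in LMP1, and Notch3, Dll1 and Jag1 fell 12.2-fold, 28.0-fold and 2.31-fold. A gene was called where its p, adjusted after Benjamini and Hochberg over all genes tested, was under 0.05 in the quasi-likelihood test of edgeR. By that rule 4 of 10 members were called, 1 higher and 3 lower, against 16.4% of the 13460 genes tested, with 7.36% higher and 9.06% lower. The log2 fold change was 0.97 ± 0.24 for Notch2 (SE, adjusted p = 0.0287 in edgeR), -3.61 ± 0.74 for Notch3 (adjusted p = 0.0159), -4.81 ± 1.02 for Dll1 (adjusted p = 0.0183) and -1.21 ± 0.31 for Jag1 (adjusted p = 0.0314). Of the receptors 1 rose and 1 fell, of the ligands 2 fell, and of the 4 targets 0 were called by edgeR, where Hes1 had an unadjusted p under 0.05. Hes1 had a log2 fold change of 1.01 ± 0.33 with an adjusted p of 0.0676, and it was called by DESeq2 (adjusted p = 0.0236). Notch1 and Nrarp had log2 fold changes of 0.02 ± 0.60 and 0.02 ± 0.35, Jag2 of -1.02 ± 0.57, Hey1 of -0.69 ± 1.31 and Heyl of -0.35 ± 1.54. These 5 were not called by edgeR, nor by DESeq2, which gave Hey1 and Heyl no adjusted p. The median over the 10 members was -0.52, against -0.01 over all genes tested.

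Without LMP1 replicate 1 or replicate 2, the remaining library being assumed to vary like the other groups, 0 members were called by edgeR (Notch3 at adjusted p of 0.149 and 0.135, Dll1 at 0.165 and 0.139, Jag1 at 0.181 and 0.2, Notch2 at 0.198 and 0.127), with log2 fold changes of -3.63 and -3.58 for Notch3 and -4.66 and -4.96 for Dll1. The size of the Notch3 fall leaned on Ctr replicate 1, without which its log2 fold change was -2.88. Notch2 and Jag1 also missed the threshold without Ctr replicate 1 (adjusted p of 0.0579 and 0.0576) and without Ctr replicate 3 (0.0716 and 0.0712), and Notch2 in a fit of the LMP1 and Ctr libraries alone (0.0748). Hes1 was called by edgeR without Ctr replicate 1 (adjusted p = 0.0303). In the authors' deposited table, Notch2 and Hes1 were higher and Notch3, Jag1 and Dll1 lower in LMP1 at an adjusted p under 0.05.

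Some lists of cell type markers differed between LMP1 and Ctr as well. The 8 basal markers summed to 165.8 and 222 CPM in LMP1, against 2013, 1521 and 3859 CPM in Ctr, with 7 of the 8 called lower and 0 of the 8 at 0 counts in any of these libraries. The 7 suprabasal markers summed to 14.2 and 30.7 CPM in LMP1, against 281, 941 and 927 CPM in Ctr, with 5 called lower. The 7 epithelial markers summed to 957 and 1448 CPM in LMP1, against 3904, 2511 and 2701 CPM in Ctr, with 5 called lower. The 9 mesenchymal markers summed to 2080 and 1663 CPM in LMP1, against 3.31, 616 and 21.4 CPM in Ctr. Of 7 mesenchymal markers tested, only Fn1 was called, as higher. Mural cells are known to express Notch3. The 7 mural markers summed to 25.1 and 20.8 CPM in LMP1, against 3.53, 25.6 and 5.29 CPM in Ctr, with 0 of 3 tested called. The 7 endothelial markers summed to at most 1.08 CPM in these 5 libraries. The part of any of these in the member differences was not tested. In bulk RNA, fewer cells of a type and less RNA per cell cannot be told apart.

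**Figure D2:**
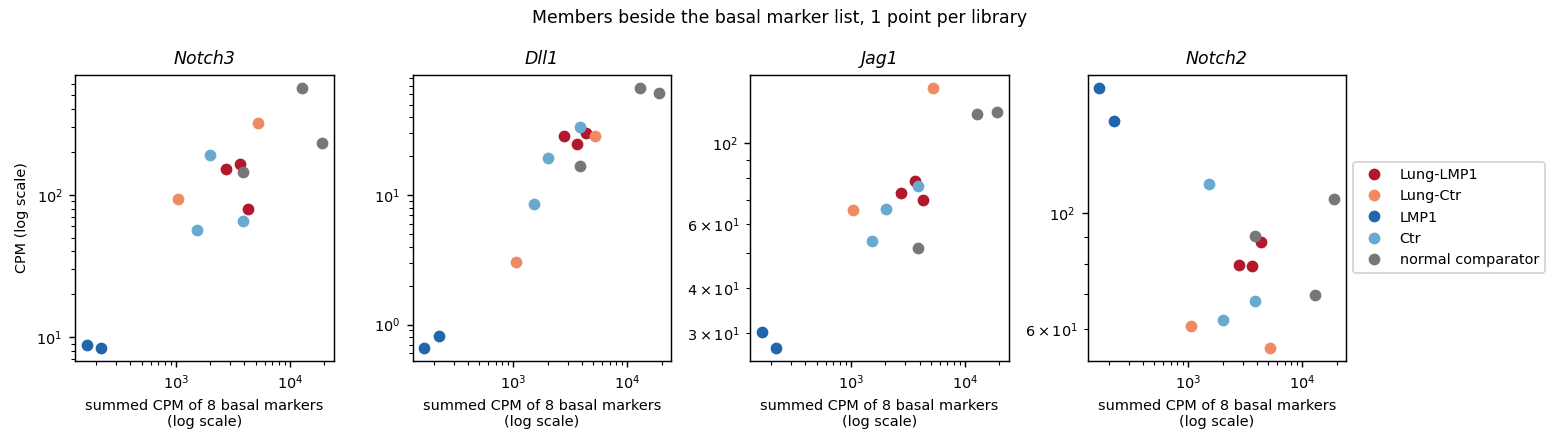
CPM of Notch3, Dll1, Jag1 and Notch2 (vertical, log axis) against the summed CPM of 8 basal markers (horizontal, log axis), with 1 point per library of the tumour groups and the normal comparator. The LMP1 libraries stand at the left, at basal sums of 165.8 and 222 CPM, with the lowest Notch3, Dll1 and Jag1 and the highest Notch2.

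The make-up of receptors and ligands was compared per length, as CPM per kilobase of annotated exon. Notch2 made up 63.3% and 66.2% of the summed receptor level in LMP1, against 15.6% to 45.7% in Ctr, and Notch3 made up 4.27% and 4.97% in LMP1, against 30.4% to 63.1% in Ctr. Among the ligands, Dll1 made up 0.657% and 0.675% in LMP1, against 5.87% to 9.47% in Ctr. Jag2 was the largest of the 3 ligands per length in every tumour, comparator and normal library, at 51.0% to 82.8%. Per length, Hes1 was the highest of the 10 members in LMP1, at 66.0 ± 27.5 CPM per kilobase (SD, n = 2), and Jag2 in Ctr, at 42.0 ± 19.6 (n = 3).

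**Figure D3:**
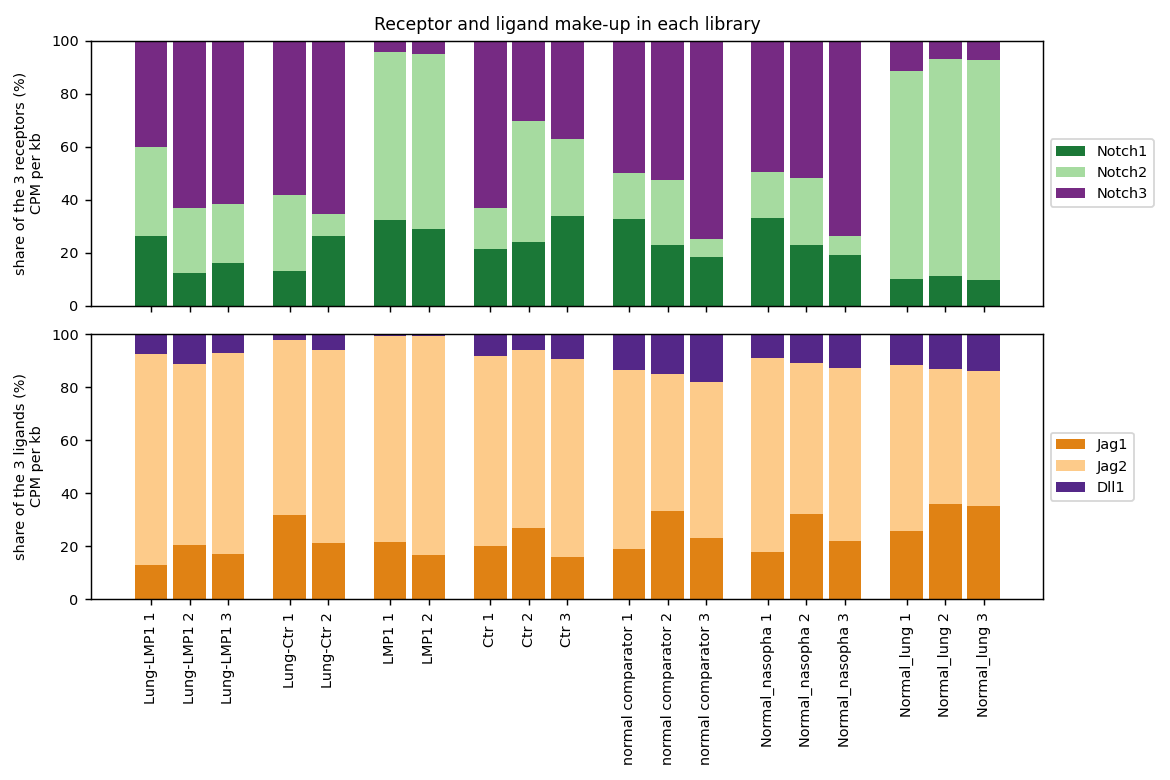
Share of the summed CPM per kilobase (%) taken by each of the 3 receptors (top) and the 3 ligands (bottom) in every library. Notch2 takes 63.3% and 66.2% of the receptor level in the LMP1 libraries and 78.6% to 83.02% in Normal_lung, and Jag2 is the largest ligand share in every library.

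A list of 49 other pathway genes, without the members, was examined next. Of 43 tested in LMP1 against Ctr, 3 rose and 3 fell, where 16.4% of all genes tested were called. The median was -0.02, against -0.01 over all genes tested. Mfng, a fringe enzyme that adds sugars to Notch receptors, rose (log2 fold change 4.10, adjusted p = 0.0215 in edgeR), at 17.8 and 19.8 CPM in LMP1, against 0.294, 2.59 and 0.348 CPM in Ctr. Neurl1b, a ubiquitin ligase acting on ligands, fell (-2.03, adjusted p = 0.0127), at 11.8 and 9.81 CPM in LMP1, against 49.4, 24.6 and 56.1 CPM in Ctr. Itch, a ubiquitin ligase in Notch turnover, fell (-0.56, adjusted p = 0.0357). The DNA-binding partner Rbpj was counted at 206 and 226 CPM in LMP1, against 359, 290.5 and 278.5 CPM in Ctr. It was not called by edgeR, but the authors' deposited table had it lower in LMP1 (log2 fold change -0.54, adjusted p = 0.0255).

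Lung-LMP1 and LMP1 share the TMPL genotype and differ in the Lung prefix. Dll1, Notch3 and Jag1 rose 41.0-fold, 16.7-fold and 2.81-fold in Lung-LMP1. By the same rule 3 of 10 members were called, all higher, against 10.1% of the 13460 genes tested, with 6.17% higher and 3.95% lower. The log2 fold changes were 5.36 ± 1.05 for Dll1 (SE, adjusted p = 0.0174 in edgeR), 4.06 ± 0.76 for Notch3 (adjusted p = 0.0143) and 1.49 ± 0.31 for Jag1 (adjusted p = 0.0213), and for each the 3 Lung-LMP1 libraries lay above both LMP1 libraries. These are the LMP1 libraries of the comparison with Ctr, so the 2 sets of calls share samples. How many of all genes had ranges that did not overlap was not counted.

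Notch2 was lower in every Lung-LMP1 library than in either LMP1 library (log2 fold change -0.84 ± 0.24, adjusted p = 0.0588) and Jag2 higher (1.62 ± 0.58, adjusted p = 0.112). Neither passed in edgeR on all tumour groups, but both passed by DESeq2 (adjusted p of 0.0133 and 0.0176) and in an edgeR fit of the Lung-LMP1 and LMP1 libraries alone (0.00887 and 0.0125). Notch1 (-0.34 ± 0.59), Hes1 (-0.26 ± 0.33), Nrarp (0.23 ± 0.35) and Hey1 (1.12 ± 1.32) were not called, and Heyl is given above as a bound. The median over the 10 members was 0.68 (the same with Heyl at its bound, and 1.12 without Heyl), against 0.01 over all genes tested. As with Ctr, 0 members were called without LMP1 replicate 1 or replicate 2 (adjusted p of 0.169 and 0.124 for Notch3, 0.193 and 0.131 for Dll1, and 0.18 and 0.158 for Jag1). Jag1 also missed the threshold without Lung-LMP1 replicate 2 (0.0516) or replicate 3 (0.0714). In the authors' deposited table, Notch3, Jag1, Jag2 and Dll1 were higher and Notch2 lower in Lung-LMP1.

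The basal markers summed to 4316, 2767 and 3640 CPM in Lung-LMP1, against 165.8 and 222 CPM in LMP1, with 7 of 8 called higher. The mesenchymal markers summed to 11.5, 18.6 and 8.86 CPM, against 2080 and 1663 CPM, with 2 of 7 tested called lower. The suprabasal markers summed to 3010, 1710 and 1612 CPM in Lung-LMP1, against 14.2 and 30.7 CPM in LMP1, and the epithelial markers to 2892, 4980 and 3636 CPM, against 957 and 1448 CPM, with 5 called higher in each list. The mural markers summed to 2.03, 2.20 and 1.84 CPM in Lung-LMP1, against 25.1 and 20.8 CPM in LMP1, with 2 of 3 tested called lower. Their part in the member differences was not tested. Of 43 other pathway genes tested, 2 rose and 2 fell, where 10.1% of all genes tested were called. Their median was -0.08, against 0.01 over all genes. Neurl1b rose (2.22, adjusted p = 0.0115 in edgeR), at 40.9, 43.0 and 54.4 CPM in Lung-LMP1, against 11.8 and 9.81 CPM in LMP1. Maml2, a Mastermind coactivator, rose (1.52, adjusted p = 0.0424). Mfng fell (-6.49, adjusted p = 0.00972), at 1, 4 and 3 counts in Lung-LMP1, against 321 and 292 counts in LMP1. Dtx4, a Deltex ubiquitin ligase, fell (-3.17, adjusted p = 0.0328).

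Lung-LMP1 and Lung-Ctr set the genotypes against each other among libraries with the Lung prefix. Here 0 of 10 members passed in edgeR, as did 0% of the 13460 genes tested, with 1 member (Heyl) and 2295 genes at an unadjusted p under 0.05. By DESeq2, 0 members and 881 genes passed. The member values ran from -0.78 ± 0.59 for Notch1 to 0.87 ± 0.81 for Dll1, apart from Heyl. Notch2 lay above Lung-Ctr in all 3 Lung-LMP1 libraries (log2 fold change 0.56 ± 0.25, adjusted p = 0.294 in edgeR). Notch3 (-0.59 ± 0.61), Jag1 (-0.44 ± 0.29), Jag2 (0.20 ± 0.55), Hes1 (-0.08 ± 0.33), Hey1 (0.54 ± 1.30) and Nrarp (-0.55 ± 0.35) overlapped between the groups. The median was -0.26 (the same with Heyl at its bound, and -0.08 without Heyl), against -0.04 over all genes tested, and 0 of 43 other pathway genes were called by edgeR.

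The spread within Lung-Ctr was wide at these genes. Replicate 2 exceeded replicate 1 by 9.30-fold at Dll1, 7.63-fold at Hey1, 6.12-fold at Notch1, 3.58-fold at Jag2, 3.42-fold at Notch3, and 2.17-fold at both Jag1 and Nrarp, while Hes1 (1.16-fold) and Notch2 (0.909-fold) were close to even. The basal marker sums of these libraries were 1046 CPM in replicate 1 and 5246 CPM in replicate 2, and the part of this in the ratios was not tested. Without Lung-Ctr replicate 2 the Notch1 value turned to 1.05 (adjusted p = 0.27 in edgeR), and 0 members were called by edgeR without either Lung-Ctr library.

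Lung-Ctr and Ctr share the TMP genotype. Again 0 of 10 members passed in edgeR, as did 0% of the 13460 genes tested, with 3 members and 717 genes at an unadjusted p under 0.05, and 0 members and 40 genes by DESeq2. Those 3 were Jag1 (log2 fold change 0.72 ± 0.29), Hes1 (0.83 ± 0.33) and Nrarp (0.81 ± 0.35), each with an adjusted p of 0.915. Notch3 had 1.05 ± 0.61, Notch1 0.46 ± 0.59, Jag2 0.41 ± 0.54, Notch2 -0.43 ± 0.25, Dll1 -0.32 ± 0.79, Hey1 -0.11 ± 1.28 and Heyl 1.29 ± 1.45. The median was 0.59, against 0.00 over all genes tested, and 0 of 43 other pathway genes were called by edgeR. Without Lung-Ctr replicate 2 the Notch1 value turned to -1.37 (adjusted p = 0.289 in edgeR).

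Whether the genotype difference itself depended on the Lung prefix was tested as an interaction, (Lung-LMP1 minus Lung-Ctr) minus (LMP1 minus Ctr). Of the 10 members 0 passed in edgeR, against 0.892% of the 13460 genes tested (0.81% higher and 0.0817% lower), and 3 had an unadjusted p under 0.05. Dll1 came nearest (log2 5.68 ± 1.29, adjusted p = 0.0859), followed by Notch3 (3.02 ± 0.93, adjusted p = 0.175). DESeq2 called both (adjusted p of 4.74e-05 and 0.0104), and edgeR called Dll1 without Lung-Ctr replicate 2 (log2 8.04, adjusted p = 0.0187). The other members ran from -1.09 ± 0.47 for Hes1 to 1.23 ± 1.84 for Hey1, apart from Heyl, and were not called by either tool, DESeq2 giving Hey1 and Heyl no adjusted p.

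**Figure D4:**
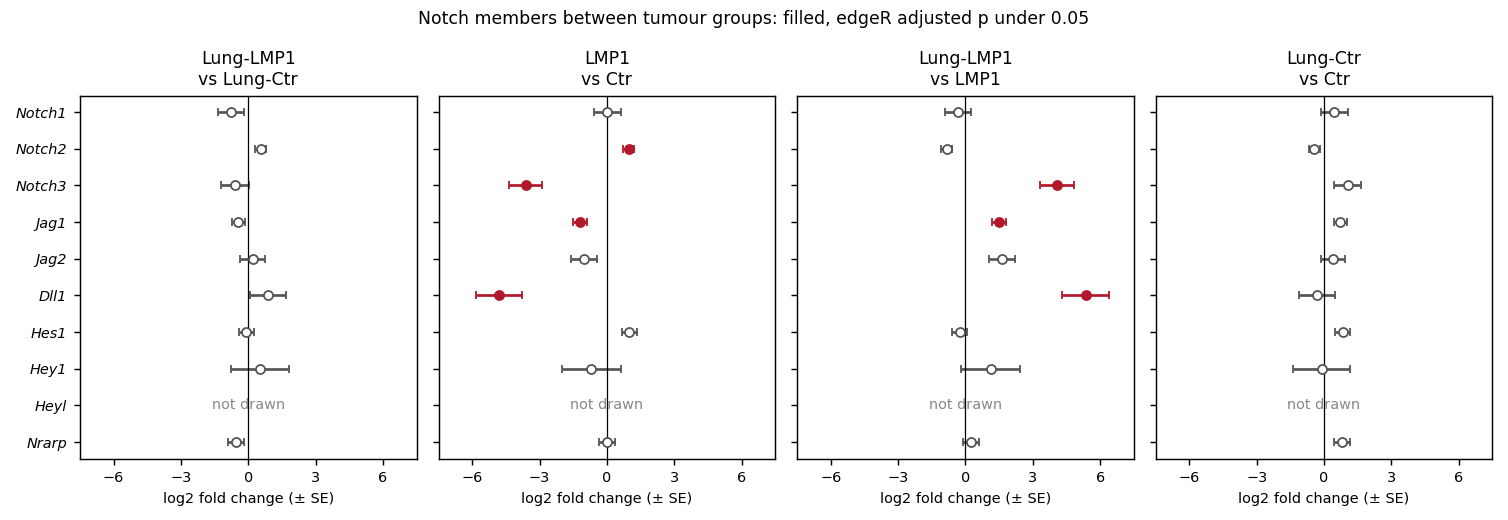
Log2 fold change (horizontal, ± SE) of each member in the 4 comparisons between tumour groups, with filled points for an edgeR adjusted p under 0.05. Heyl, which was near the floor in all groups and had 0 counts in every Lung-LMP1 library, is not drawn in any panel. Notch3, Jag1 and Dll1 are called in both comparisons that hold the LMP1 libraries and in neither of the others.

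Tumours were then set against the normal comparator, which all 4 comparisons share, so their values are not independent of each other. In LMP1, 4 of 10 members were called, against 28.2% of the 14096 genes tested, with 13.7% higher and 14.5% lower. Notch3 fell 37.7-fold (log2 fold change -5.24 ± 0.88, adjusted p = 0.00301 in edgeR), Dll1 68.0-fold (-6.09 ± 1.12, adjusted p = 0.00426) and Jag1 3.52-fold (-1.82 ± 0.41, adjusted p = 0.0104), while Notch2 rose 1.76-fold (0.81 ± 0.26, adjusted p = 0.0384). Notch3 alone of the 4 stayed called without either LMP1 library. Without LMP1 replicate 1 or replicate 2 the adjusted p was 0.0634 and 0.0517 for Dll1, 0.083 and 0.0903 for Jag1, and 0.214 and 0.113 for Notch2, against 0.0464 and 0.0416 for Notch3. Notch2 also missed the threshold without comparator replicate 2 (0.0861) or replicate 3 (0.121), with DESeq2-style size factors (0.0512), with no filter on low counts (0.0631) and with only these groups fitted (0.1), so that its call held under 2 of 10 alternatives. The Notch3 value was -4.53 without comparator replicate 3. The other 6 were not called, with log2 fold changes of -1.08 ± 0.62 for Notch1, -1.21 ± 0.71 for Jag2, 0.98 ± 0.50 for Hes1, -2.71 ± 1.45 for Hey1, 1.34 ± 1.65 for Heyl and -0.56 ± 0.55 for Nrarp. The median over the 10 was -1.14, against -0.02 over all genes tested.

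In Ctr against the comparator, 0 of 9 members tested passed in edgeR (2 at an unadjusted p under 0.05), against 22.4% of the 13034 genes tested (9.67% higher and 12.7% lower), Heyl being too low to test. All 9 had negative values, from -2.08 ± 0.92 for Hey1 to -0.08 ± 0.52 for Hes1, with a median of -0.65, against -0.06 over all genes tested. Notch1 (-1.14 ± 0.36, adjusted p = 0.0598) and Notch3 (-1.68 ± 0.65, adjusted p = 0.102) were the closest to the threshold. Notch2 had -0.20 ± 0.30, Jag1 -0.65 ± 0.36, Jag2 -0.22 ± 0.62, Dll1 -1.32 ± 0.66 and Nrarp -0.62 ± 0.55. At each of the 9 the Ctr and comparator ranges overlapped. DESeq2 called Notch1, Notch3 and Hey1 lower (adjusted p of 0.0235, 0.0292 and 0.0484), as did the authors' deposited table. Without comparator replicate 2, edgeR called Notch1 (adjusted p = 0.0246) and Jag1 (0.0448) lower.

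Against the comparator, 0 of 10 members passed in edgeR in Lung-LMP1, where 32% of all genes tested passed (14.6% higher and 17.4% lower). Likewise 0 of 10 passed in Lung-Ctr, where 27.4% of all genes tested passed (13.2% higher and 14.2% lower). At an unadjusted p under 0.05 there was 1 member in each, Notch1 in Lung-LMP1 and Notch2 in Lung-Ctr. Notch1 was lower in all 3 Lung-LMP1 libraries than in any comparator library (-1.46 ± 0.55, adjusted p = 0.0625 in edgeR). DESeq2 called it (adjusted p = 0.0193), and so did edgeR without comparator replicate 2 (0.043), while DESeq2 called 0 members in Lung-Ctr. Hey1 was called lower in Lung-LMP1 without Lung-LMP1 replicate 2 (log2 fold change -3.93, adjusted p = 0.0481), the library that had 15.3 CPM of it. In Lung-Ctr without its replicate 2, Notch1 (-2.51, adjusted p = 0.0192) and Dll1 (-4.01, adjusted p = 0.0284) were called lower. In Lung-LMP1 the fold changes that did not pass included Notch3 (-1.21 ± 0.62), Dll1 (-0.78 ± 0.73), Jag1 (-0.37 ± 0.34), Jag2 (0.37 ± 0.61), Notch2 (-0.07 ± 0.24), Hes1 (0.68 ± 0.45), Nrarp (-0.37 ± 0.48) and Hey1 (-1.64 ± 1.19), while Heyl, with 0 counts in Lung-LMP1, against 5, 0 and 1 in the comparator, overlapped and gets no bound, since 1 count is left without comparator replicate 1. In Lung-Ctr they were Notch1 (-0.70 ± 0.61), Notch2 (-0.64 ± 0.27), Notch3 (-0.64 ± 0.70), Jag1 (0.06 ± 0.38), Jag2 (0.16 ± 0.68), Dll1 (-1.66 ± 0.86), Hes1 (0.74 ± 0.50), Hey1 (-2.20 ± 1.41), Heyl (2.92 ± 1.59) and Nrarp (0.17 ± 0.54). The medians were -0.57 in Lung-LMP1 (-0.37 without Heyl) and -0.29 in Lung-Ctr, against -0.08 and -0.04 over all genes tested. The basal marker sums of the comparator were 19115, 3848 and 12792 CPM, replicate 2 being low at most members as well, and the part of this in these values was not tested.

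Rbpj, the DNA-binding partner of the cleaved receptors, rose in all 4 tumour groups against the comparator, with log2 fold changes of 2.04 in Lung-LMP1 (adjusted p = 0.000269 in edgeR), 1.79 in Lung-Ctr (0.000357), 1.73 in LMP1 (0.00039) and 2.22 in Ctr (0.00741). Its levels were 201, 294.5 and 262 CPM in Lung-LMP1, 247 and 198 CPM in Lung-Ctr, 206 and 226 CPM in LMP1, and 359, 290.5 and 278.5 CPM in Ctr, against 65.8, 60.6 and 62.3 CPM in the comparator. The comparator libraries lay below every tumour library. The annotation holds pseudogenes of Rbpj, whose reads the counting could have split. Of the other pathway genes, 6 rose and 7 fell among 44 tested in Lung-LMP1, 7 and 3 of 44 in Lung-Ctr, 8 and 1 of 44 in LMP1, and 5 and 4 of 42 in Ctr. Of all genes tested, 32%, 27.4%, 28.2% and 22.4% were called in these comparisons, in the same order. Ctr was fitted with the comparator alone, as 6 libraries, and the other tumour groups in a fit of 13 libraries. The Ctr counts, share and adjusted p are therefore not on a like footing with the others. In the fit of 13 libraries, 4944 of 14096 genes tested were called for Ctr.

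Beside Rbpj, these genes had the smallest adjusted p in one or more of the comparisons. Sin3a, a corepressor scaffold, rose in Lung-LMP1 (0.85, adjusted p = 0.00309 in edgeR), Lung-Ctr (0.73, 0.00884), LMP1 (0.78, 0.00683) and Ctr (0.85, 0.0298). Adam10, the protease that first cuts ligand-bound Notch, rose in the same 4 groups, with 0.65 in Lung-LMP1 (adjusted p = 0.0269 in edgeR), 1.01 in Lung-Ctr (0.00688), 0.66 in LMP1 (0.0393) and 0.91 in Ctr (0.0352). Mib1, a ubiquitin ligase of ligands, rose in Lung-Ctr (0.75, adjusted p = 0.0166) and Ctr (0.67, 0.0486), with 0.48 (0.0545) in Lung-LMP1 and 0.31 (0.242) in LMP1. Numbl, a relative of the Notch inhibitor Numb, fell in Lung-LMP1 (-2.27, adjusted p = 0.00453) and Ctr (-1.86, 0.0144), with -0.82 (0.207) in LMP1 and 0.01 (0.993) in Lung-Ctr. Dtx3, a Deltex ligase, fell in Lung-LMP1 (-2.12, adjusted p = 0.00201), Lung-Ctr (-1.26, 0.0283), LMP1 (-1.57, 0.0128) and Ctr (-1.67, 0.0154). Psen2, a catalytic subunit of gamma-secretase, fell in Lung-LMP1 (-1.83, adjusted p = 0.011), Lung-Ctr (-1.99, 0.0167) and Ctr (-1.93, 0.0181), with -1.22 (0.0819) in LMP1. Between tumour groups, edgeR called 0 of 43 pathway genes in Lung-LMP1 against Lung-Ctr and in Lung-Ctr against Ctr. In the authors' deposited table, Numbl was higher in Lung-Ctr than in Ctr (log2 fold change 1.88, adjusted p = 0.0144) and in LMP1 than in Ctr (0.99, 0.0191). It was lower in Lung-LMP1 than in Lung-Ctr (-2.31, 0.00391) and than in LMP1 (-1.41, 0.0221). Mib1 was lower in LMP1 than in Ctr in the deposited table (-0.40, 0.0353). In LMP1 against the comparator, Dtx4 rose (3.35, adjusted p = 0.00789 in edgeR), as did Mfng (7.70, 0.00193). Mfng had 321 and 292 counts in LMP1, against 2, 0 and 2 counts in the comparator.

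Normal_nasopha and Normal_lung compare the untreated tissues in a table of their own. Of the 10 chosen members, 7 of the 9 tested were called higher and 0 lower, against 31.1% of the 15886 genes tested, with 15.4% higher and 15.6% lower. Hey1 rose 47.6-fold (log2 fold change 5.57 ± 1.10, adjusted p = 0.00967 in edgeR), at 16.9, 2.58 and 31.2 CPM in Normal_nasopha, against 0.646, 0.142 and 0.146 CPM in Normal_lung. Notch3 rose 29.4-fold (4.88 ± 0.58, adjusted p = 0.00148), at 195.8, 122.7 and 469.6 CPM, against 10.7, 6.51 and 6.75 CPM. Notch1 rose 9.42-fold (3.24 ± 0.35, adjusted p = 0.00104), at 228, 95.5 and 216 CPM, against 16.9, 18.7 and 15.8 CPM. For each of these the 3 Normal_nasopha libraries lay above all Normal_lung libraries.

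The 3 ligands rose as well. Jag2 rose 6.24-fold (2.64 ± 0.59, adjusted p = 0.0157 in edgeR), at 572, 102 and 399.5 CPM in Normal_nasopha, against 64.8, 40.9 and 47.6 CPM in Normal_lung. Dll1 rose 4.21-fold (2.07 ± 0.50, adjusted p = 0.0206), at 42.1, 11.6 and 46.7 CPM, against 7.20, 6.32 and 7.82 CPM. Jag1 rose 3.34-fold (1.74 ± 0.34, adjusted p = 0.00942), at 115, 47.7 and 111 CPM, against 22.3, 23.9 and 27.4 CPM. In all 3 the groups did not overlap, and Normal_nasopha replicate 2 was the lowest of its group. Here and in the other comparisons, ranges were compared for the members only, so the share of all genes without overlap is not given.

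Nrarp rose 5.69-fold (2.51 ± 0.66, adjusted p = 0.0269 in edgeR), at 15.6, 3.22 and 10.04 CPM in Normal_nasopha, against 2.33, 1.09 and 1.07 CPM in Normal_lung. Its counts depend on the table, since it had 1806, 395 and 1201 counts in the comparator columns, against 322, 70 and 207 in the Normal_nasopha libraries of the same numbers, a ratio of 5.61 to 5.80, while the ratios of the other members lay between 0.725 and 1.18. Levels of Nrarp are therefore not set across the tables.

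Hes1 and Notch2 did not pass. Hes1 was counted at 86.4, 22.8 and 80.9 CPM in Normal_nasopha, against 52.8, 31.8 and 45.1 CPM in Normal_lung (log2 fold change 0.39 ± 0.48, adjusted p = 0.573 in edgeR). Notch2 was counted at 91.2, 79.3 and 58.9 CPM in Normal_nasopha, against 99.3, 102.5 and 102.5 CPM in Normal_lung (-0.56 ± 0.20, adjusted p = 0.0731), and DESeq2 called it lower (adjusted p = 0.0298). Heyl, too low to test, had 5, 0 and 1 counts in Normal_nasopha, against 0 in all 3 Normal_lung libraries. Per length, Notch2 made up 6.94% to 25.2% of the receptor level in Normal_nasopha, against 78.6% to 83.02% in Normal_lung.

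The median over the 9 members tested was 2.51, against 0.13 over all genes tested. Calls of Jag2, Dll1 and Nrarp depended on single libraries. Dll1 missed the threshold without any one of Normal_nasopha replicates 1 and 3 and Normal_lung replicates 1, 2 and 3 (adjusted p of 0.0514, 0.0622, 0.072, 0.0761 and 0.0687). Nrarp missed it without Normal_nasopha replicate 1 or 3 or Normal_lung replicate 2 or 3 (0.0634, 0.062, 0.0949 and 0.106), and Jag2 without Normal_lung replicate 2 or 3 (0.0615 and 0.0655). Notch1, Notch3, Jag1 and Hey1 stayed called under each of the 10 alternatives run, but the size of the change at Hey1 and Notch3 moved. Hey1 had a log2 fold change of 4.76 without Normal_nasopha replicate 3 and 6.67 without Normal_lung replicate 1, and Notch3 had 4.13 without Normal_nasopha replicate 3. Normal_lung replicates 2 and 3 held 3 counts of Hey1 each, the floor used here. The authors' deposited table called the same 7 members higher.

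Marker lists differed widely between the normal groups. The basal markers summed to 16155, 3158 and 10604 CPM in Normal_nasopha, against 470, 307 and 335 CPM in Normal_lung. The mural markers summed to 163, 59.4 and 631 CPM, against 26.9, 40.4 and 23.3 CPM. Of 5 mural markers tested, however, 1 was called higher and 2 lower in edgeR, with a median log2 fold change of 0.10. The immune markers summed to 47.3, 9.43 and 37.0 CPM, against 1669, 2910 and 2535 CPM. The suprabasal markers summed to 7526, 1236 and 4531 CPM in Normal_nasopha, against 317.6, 143.8 and 230.2 CPM in Normal_lung. The mesenchymal markers summed to 32.5, 19.4 and 50.7 CPM, against 474, 1034 and 317 CPM, with 8 of 9 called lower. Endothelial markers summed to at most 1.12 CPM in Normal_nasopha and 5.32 CPM in Normal_lung. The part of these in the member differences was not tested. Of 42 other pathway genes tested, 1 rose and 7 fell, where 15.4% of all genes tested were called higher and 15.6% lower. Their median was -0.10, against 0.13 over all genes. Kat2b, an acetyltransferase coactivator (-1.91, adjusted p = 0.00164 in edgeR), Hes6 (-1.95, 0.00714) and Hes2 (-3.36, 0.0177), both of the HES family, and the receptor Notch4 (-2.22, 0.011) fell in Normal_nasopha.

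**Figure D5:**
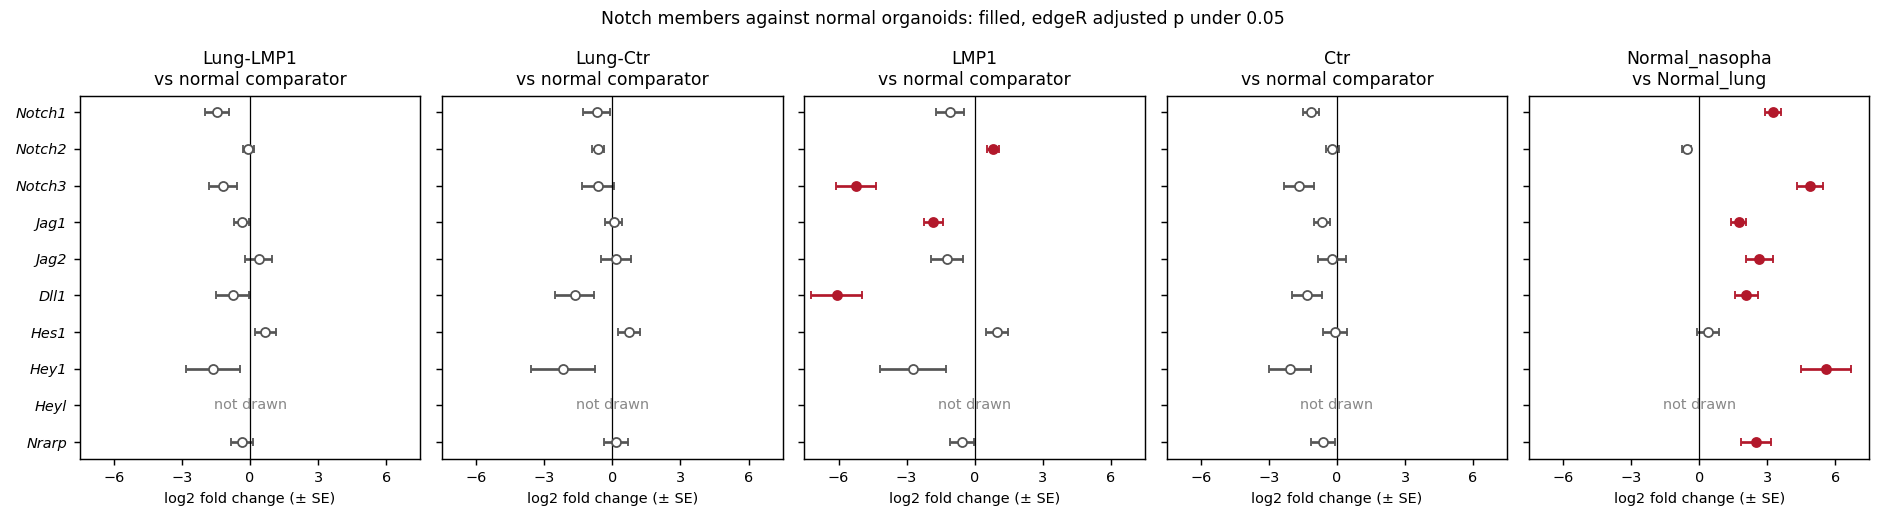
Log2 fold change (horizontal, ± SE) of each member in the 4 tumour groups against the normal comparator and in Normal_nasopha against Normal_lung, with filled points for an edgeR adjusted p under 0.05. Heyl is not drawn. Of the tumour panels, LMP1 holds the 4 called members, and in the last panel 7 members are called, all higher in Normal_nasopha.

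Genes with the most similar course over the 10 tumour libraries were found by the root mean square difference of centred log2 CPM among 9233 genes, as a description with no test. For Notch3 these were Mst1 (0.318) and Sytl1 (0.324), for Dll1 Lama3 (0.337) and Lypd3 (0.42), for Jag1 Entpd5 (0.145) and Pdlim5 (0.208), and for Notch2 Toe1 (0.147) and Mtch1 (0.17). The members' own spread was 1.79, 2.15, 0.721 and 0.537 (SD of log2 CPM). For Notch1 they were Rcn1 (0.262) and Snhg7 (0.311), for Jag2 Efnb1 (0.233) and Gja1 (0.254), for Hes1 Cerk (0.229) and Tom1 (0.252), and for Nrarp Jmjd4 (0.203) and Txndc17 (0.216). Hey1 (Fam114a1 at 0.845 and Pcdh19 at 0.964) and Heyl (Pik3ip1 at 0.693 and Tcp11l2 at 0.778) had none as near. Their own means of 1.68 and -1.59 lay below the level searched, so genes of their level were left out. Their spread was 1.34 and 1.4 (SD of log2 CPM).

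The annotation places other transcripts over some members. On the opposite strand these are 0610009E02Rik and Gm13568 at Notch1, Gm17276 at Notch3, A930024N18Rik at Dll1 and Gm38287 at Nrarp. Whether the counting used strand is not given in the sources used here, so reads of these pairs cannot be told apart. On the same strand lie Gm42819 and Gm42820 at Notch2, Mir6996 at Notch1 and Mir6941 at Jag2, where strand would not separate the reads.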

How the data were processed

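RNA-seq counts of 16 mouse organoid libraries were used, with 3 columns called the normal comparator. The deposited counts are raw, with 1 whole number per gene and library, per the file headers, and all tests used them. STAR, DESeq2, DESeq and mm10 are named in the submitters' processing notes, with no version or role. For the counting tool, its use of strand and the annotation the sources used here give nothing. Log2 fold changes and adjusted p-values were also deposited by the authors, per the file headers, and are quoted only as the authors' deposited table. Columns headed TPM were not used, and the 13 repeated library columns were identical across tables.

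Counts were fitted with edgeR 4.0.16 in R 4.3.3 (filterByExpr by group, TMM, robust quasi-likelihood F-test, Benjamini-Hochberg adjustment over all genes tested), and a gene was called at an adjusted p under 0.05. The 10 tumour libraries were fitted together, with 6 residual degrees of freedom. Ctr with the comparator, and Normal_nasopha with Normal_lung, were fitted as 6 libraries each, with 4 residual degrees of freedom, and the other tumour groups were set against the comparator in a fit of 13 libraries. The code was tested on simulated data. Levels per length divide CPM by annotated exon length (GENCODE vM21, GRCm38), and promoter sequences come from RefSeq. Total counts ran from 12535166 to 21737184 per library. The alternatives were DESeq2 1.42.0, DESeq2-style size factors in edgeR, no filter on low counts, a replicate block, only the groups compared, and each library left out in turn. The bounds of Heyl with a library left out, and medians without Heyl, were added after seeing the data. All 10 members are named, with the 4 other pathway genes of smallest adjusted p among those called in each comparison, except 1 that is not reported here. The members and lists were chosen with earlier results of these data known.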

Additional observations from a re-analysis of the deposited data

How the results depend on the processing

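No called member changed direction under any alternative run. In LMP1 against Ctr 4 members were called, 0 with the replicate block and 0 to 4 with a library left out. In Lung-LMP1 against LMP1 3 were called, 5 by DESeq2, 0 with the replicate block, 5 with only these groups fitted, and 0 to 3 with a library left out. The interaction went to 2 by DESeq2 and 0 to 1 with a library left out. Against the comparator, Ctr went to 3 by DESeq2 and 0 to 2 with a library left out, LMP1 to between 1 and 4, Lung-Ctr to between 0 and 2, and Lung-LMP1 to 1 by DESeq2, 1 with only its groups fitted and 0 to 1 with a library left out. Normal_nasopha against Normal_lung gave 4 to 7, and 0 members were called throughout by edgeR and DESeq2 in Lung-LMP1 against Lung-Ctr and in Lung-Ctr against Ctr. The cause of these shifts was not tested. With the replicate block the adjusted p in edgeR was 0.0633 for Notch3, 0.0683 for Dll1, 0.104 for Notch2 and 0.105 for Jag1 in LMP1 against Ctr, and 0.0633, 0.0633 and 0.0828 for Notch3, Dll1 and Jag1 in Lung-LMP1 against LMP1. Whether the replicate numbers pair the samples is not given by the labels. Correlations of same-numbered libraries, taken on deviations from group means, ran from -0.348 to 0.174 among tumours. They cannot decide it, since libraries of different numbers were not set beside them.

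Counts of all genes called moved as well. LMP1 against Ctr had 2210 (3576 by DESeq2, 483 with the block, 25 to 1920 with a library left out), and Lung-LMP1 against LMP1 had 1361 (2537, 360, and 33 to 949, with 2682 in a fit of these groups alone). The interaction had 120 (926 by DESeq2, 2 with the block, 4 to 331 with a library left out). Lung-LMP1 against Lung-Ctr had 0 (881 by DESeq2, 0 to 33 with a library left out), and Lung-Ctr against Ctr had 0 (40, and 0 to 31). Against the comparator, Ctr had 2917 (1001 with the block, 4944 in the fit of 13 libraries, 718 to 3576 with a library left out), LMP1 3980 (2517 with the block, 2288 with only its groups fitted, 736 to 4836), Lung-Ctr 3861 (168 with only its groups fitted, 2018 to 4565) and Lung-LMP1 4516 (2937, and 2354 to 5346). Normal_nasopha against Normal_lung had 4935 (2657 to 5421 with a library left out). Of 80 uncalled member values, 32 changed sign and 14 were called under some alternative, 0 of them with the opposite sign. At Heyl, and at Hey1 in several libraries, depth limits what can be seen.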
